A study of Mus musculus with 18 samples.

Results

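The integrated stress response and amino acid supply genes examined here are 32 of the 55450 genes of a count table from mouse C2C12 cells, a myoblast line that fuses into multinucleated myotubes when serum is withdrawn. They were named as a list of known stress response and amino acid genes, and the list was chosen because of 1 of them, Wars, which was higher in control myotubes than in control myoblasts by a difference that the mutant lines lacked (overexpressor) or showed only in small part (knockout). Contrasts of myotubes with myoblasts within a line, of mutant with control myotubes, and of mutant with control differentiation responses were therefore used in the choice, and they are described here without a test. The myoblasts of the lines, the myotubes of the mutant lines against each other, and the difference between the responses of the mutant lines were not used in it and were tested. Wars is the exception, because its libraries in these groups entered the choice. Its values are described without p-values, while counts of members called include it. All 32 genes passed the filter on low counts, and 17912 genes of the table did so.

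The 18 libraries of polyadenylated RNA came from 3 lines, each as myoblasts in DMEM with 10% fetal bovine serum and as myotubes on day 3 in DMEM with 2% horse serum, with 3 replicates (A, B and C) per group. The control line (px in the titles) was a population sorted for EGFP after transfection with the pX458 vector, which carries Cas9, and no guide. The overexpressor (2-4) and the knockout (2-7) of the Dlk1-Dio3 noncoding RNA cluster, so called in the labels, were each grown up from 1 EGFP-positive cell after transfection with pairs of guide constructs aimed at deleting sequence near the Meg3 promoter. The series asks how the dosage of this cluster bears on the state of muscle cells and their differentiation. Each mutant is 1 clone and the control is a mixed population, so the effect of the deletion and that of cloning cannot be told apart, and nothing states whether replicates were separate cultures, so p-values measure the spread between these libraries.

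The integrated stress response begins when kinases that sense stresses such as amino acid shortage or unfolded protein in the endoplasmic reticulum phosphorylate the translation initiation factor eIF2. General translation slows, while the messenger RNA of ATF4 is translated better through the upstream open reading frames in its leader. ATF4 then pairs with C/EBP proteins and switches on genes that import amino acids, make serine, glycine, asparagine and proline, charge tRNAs and, in time, shut the response off again through Ppp1r15a. In skeletal muscle the pathway is known for the secreted factors FGF21 and GDF15, which muscle releases under mitochondrial stress.

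Libraries held 41544358 to 79140702 counts, and a count of 3, taken as the floor of detection, corresponded to 0.0375 to 0.0693 CPM (counts scaled to a common library size by the trimmed mean of M values, TMM). Meg3, the targeted gene, had 0 counts in every control and every knockout library and 133 ± 22.9 and 92.6 ± 13.4 CPM in overexpressor myoblasts and myotubes (SD, n = 3), so it does not check the knockout label. All 8 myotube markers examined were expressed in every group, and their summed CPM ran from 278.6 to 436 in control myoblasts, from 530.4 to 878 in those of the overexpressor and from 10941 to 13951 in those of the knockout. In myotubes it ran from 16909 to 17530 in the control line, from 28193 to 31152 in the overexpressor and from 36689 to 44116 in the knockout. Knockout cells labelled myoblasts thus carried myotube transcripts between the control myoblast and control myotube levels, nearer to the latter, and for no marker did control myotubes lie above all other libraries. The summed CPM of 7 genes of cycling myoblasts ran from 1113 to 1480 in the myoblast libraries, and from 306 to 319 in control, 428.3 to 439.8 in overexpressor and 550.4 to 567 in knockout myotubes, so that the sum was lowest in control myotubes. The 7, called the cycling genes below, include the muscle lineage factors Myf5, Pax7 and Myod1, so their sum does not measure cycling alone. In control myotubes 1 of the 7 reached 12278 counts in a library. Of 9 markers of other cell types, Sox10 was at 0 in every library and the rest were at or near 0, apart from Col2a1, at up to 1.31 ± 0.0746 CPM in knockout myoblasts, and the keratin gene Krt14, at 51.3 ± 1.51, 116 ± 10.3 and 11.1 ± 1.59 CPM in control, overexpressor and knockout myoblasts. The summed CPM of the 9 was 14.9 to 16.0 in control, 4.00 to 4.39 in overexpressor and 0.971 to 1.55 in knockout myotubes. Overexpressor myotube replicate C stood apart from its replicates. Its counts differed from those of A and B by a chi-square per degree of freedom of 107.7 and 102.9, against 21.0 between A and B. Overexpressor myoblast replicate B stood apart likewise, by 34.1 and 30.2 from A and C, against 7.86 between those.

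Promoters of members that match the letters of an element known to bind ATF4 are shown first. ATF4 and a C/EBP partner bind a composite element that reads TGATGNAA, with the stricter form TGATGCAA included in it. Promoter sequence, from 250 bases before to 50 after the transcription start in RefSeq (build GRCm38.p6), was matched for 27 of the 32 members. Searched on both strands, the element was found in 9 of the 27 (33.3%), against 1219 of 27025 genes in the table (4.51%). The stricter form was found in 7 members (25.9%), against 1.03% of genes. The holders were Atf3, Nupr1, Trib3, Chac1, Asns, Pycr1, Slc7a11, Fgf21 and Vldlr. The ER stress element, searched by its name on both strands, was found in 0 of 27 members and in 0.137% of genes. A match describes these letters only, and its absence from this window says nothing of the factor. The members were named as known stress response and amino acid genes, so the higher share may follow from how the list was made. Nothing is read from it about the levels below. The 4 stretches of 200 bases that follow, from 220 to 21 bases before the start and read in the direction of transcription, were chosen because their genes are described below in every library, and capitals mark the element in either orientation.
Atf3, chr1:191183354-191183553, minus strand: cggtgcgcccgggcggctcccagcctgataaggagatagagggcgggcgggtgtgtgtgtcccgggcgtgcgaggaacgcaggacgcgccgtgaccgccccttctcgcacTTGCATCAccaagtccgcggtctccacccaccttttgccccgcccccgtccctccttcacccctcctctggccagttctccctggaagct
Chac1, chr2:119351022-119351221, plus strand: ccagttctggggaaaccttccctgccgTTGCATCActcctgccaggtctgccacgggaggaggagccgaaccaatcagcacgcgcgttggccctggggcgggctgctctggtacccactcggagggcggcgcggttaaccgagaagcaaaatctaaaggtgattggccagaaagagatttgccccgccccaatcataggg
Slc7a11, chr3:50443634-50443833, minus strand: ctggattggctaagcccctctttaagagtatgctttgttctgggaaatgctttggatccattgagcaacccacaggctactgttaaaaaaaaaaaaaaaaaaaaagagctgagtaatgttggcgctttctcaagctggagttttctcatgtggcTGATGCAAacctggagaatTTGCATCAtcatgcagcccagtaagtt
Fgf21, chr7:45615511-45615710, minus strand: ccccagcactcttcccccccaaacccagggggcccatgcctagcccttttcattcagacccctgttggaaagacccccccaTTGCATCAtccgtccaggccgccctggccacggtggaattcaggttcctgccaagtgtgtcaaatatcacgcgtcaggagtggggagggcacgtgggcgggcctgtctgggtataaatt
Slc7a11 holds the element 2 times, once in each orientation. The next 3 stretches of 30 bases, cut around the element, show the sites of Asns, Trib3 and Vldlr with the same direction and capitals. The site of Trib3 lies after the start, at bases 15 to 22. Vldlr also has a promoter window that lacks the element. The sites of Asns and Trib3 are forms of the general element that do not match the stricter one.
Asns, chr6:7693214-7693243, minus strand: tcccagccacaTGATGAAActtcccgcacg
Trib3, chr2:152344028-152344057, minus strand: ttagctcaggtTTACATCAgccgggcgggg
Vldlr, chr19:27216809-27216838, plus strand: agcagcaatagTTGCATCAgcgctcctagc

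Across the 6 groups the list was at its highest in control myotubes. For 31 of the 32 members all 3 control myotube libraries lay above all 15 other libraries, the exception being Ddit4, and 9.81% of the genes tested did so. Summed over the 32 members, control myoblasts held 2065 ± 79.8 CPM, those of the overexpressor 2228 ± 132 and those of the knockout 3091 ± 62.7 (SD, n = 3). Control myotubes held 11034 ± 499 CPM, against 3506 ± 277 in those of the overexpressor and 3539 ± 243 in those of the knockout. In control cells 31 members were higher in all myotube than in all myoblast libraries, against 38% of genes, with a median log2 difference of 2.71 over the members and 0.07 over all genes. All 32 members were lower in every overexpressor myotube than in every control myotube library, against 32.1% of genes, and all 32 in knockout myotubes, against 38.1%. Scaled by library totals, 30 members had control myotubes above all 15 others. These comparisons share the control myotubes, and the list was at its highest where the summed cycling genes were lowest. The summed myotube markers were higher in the myotubes of both clones than in those of control. The part of either in the result was not tested. Nothing is read from these counts because the list was selected on this pattern. As a percent of the control myotube mean, the members ran from 0.112% (Vldlr) to 60.3% (Psat1) in overexpressor myotubes, with a median of 27.7%, and from 0.0355% (Vldlr) to 68.9% (Psat1) in knockout myotubes, with a median of 29.7%. In bulk RNA, fewer cells that express a gene and less RNA per cell cannot be told apart.

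**Figure D1:**
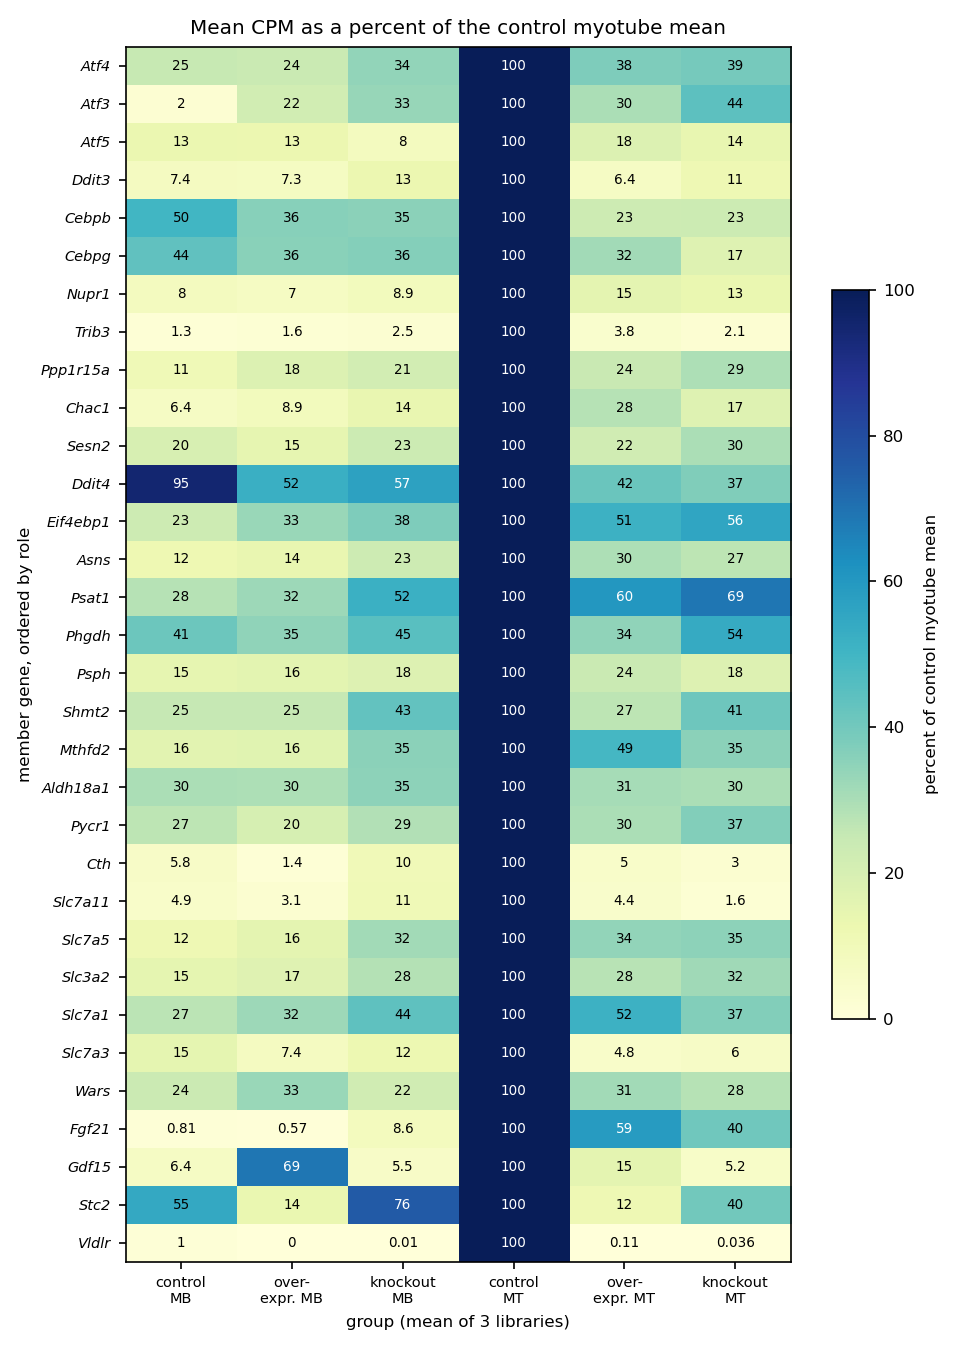
Mean CPM of each of the 32 members in the 6 groups (MB, myoblasts; MT, myotubes; 3 libraries each), as a percent of the control myotube mean, with rows ordered by role. Control myotubes are the darkest column in every row, Ddit4 is nearly as high in control myoblasts at 94.7%, and Gdf15 is at 68.9% in overexpressor myoblasts.

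In the mutant lines the list was less uniform. Between overexpressor myotubes and myoblasts 18 members were higher in all myotube libraries, against 30.2% of genes, and 3 were lower in all, against 32.6%. In the knockout 15 were higher in all, against 32.9% of genes, and 9 lower in all, against 39.4%, while with library totals 9 were higher and 13 lower. The median log2 difference between myotubes and myoblasts was 0.58 in the overexpressor and 0.16 in the knockout, against -0.02 and -0.08 over all genes, and the knockout value was -0.01 with library totals. Fgf21 was the member with the largest difference in control cells (log2 6.95 ± 0.20, SE), and it stood at 6.69 ± 0.21 in the overexpressor and 2.23 ± 0.15 in the knockout. Ddit4, which encodes an inhibitor of the growth kinase complex mTORC1, had the smallest in control cells, 0.08 ± 0.10, and its sign turned, to -0.165, when libraries were scaled by their totals. Scaling by library totals also moved the median of all genes in control cells from 0.07 to -0.17.

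**Figure D2:**
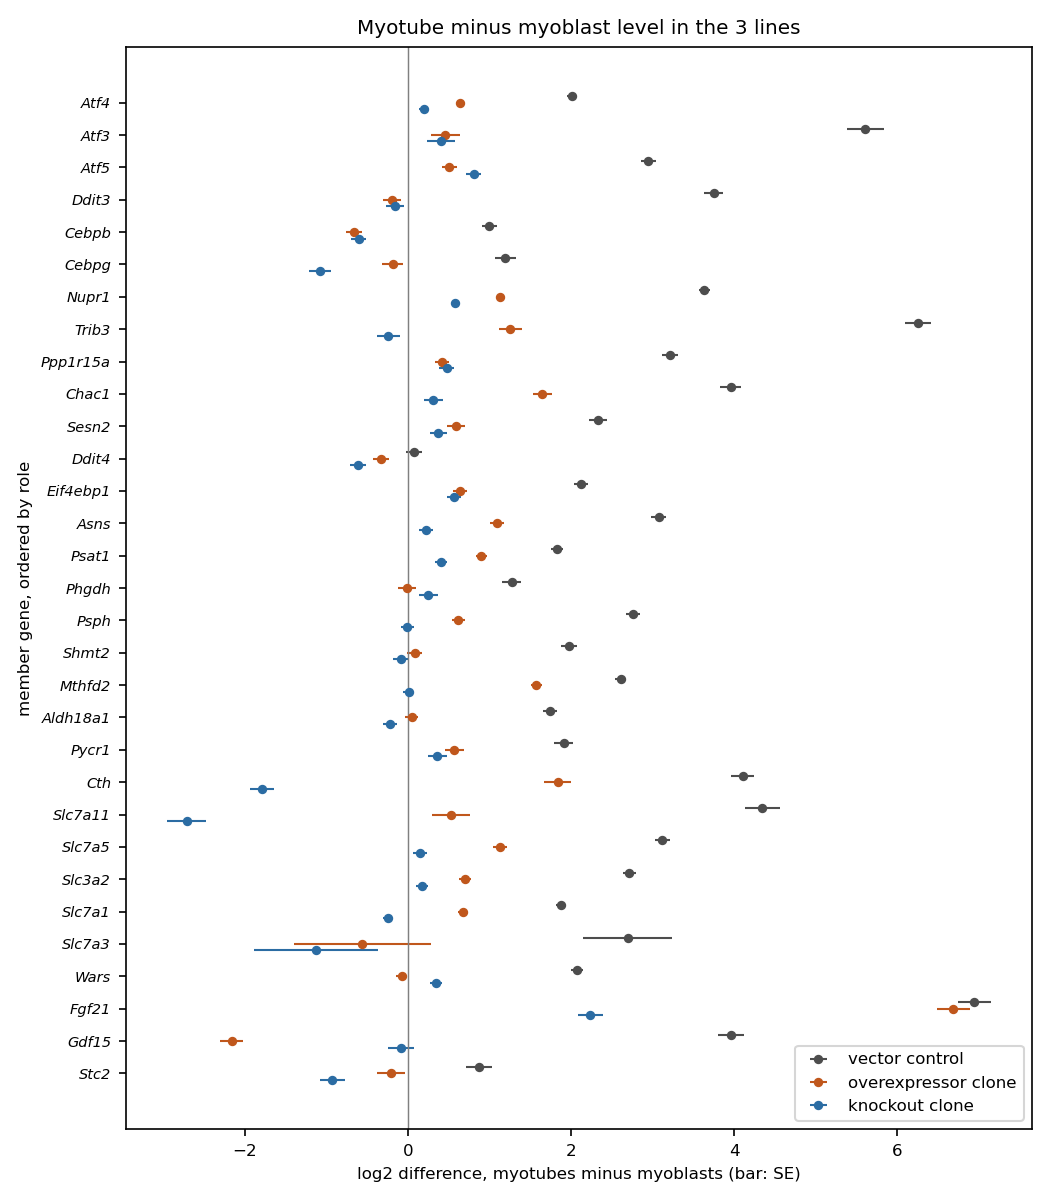
Log2 difference between myotubes and myoblasts (x axis; bars, SE; 3 libraries a group) of 31 members in the vector control, the overexpressor clone and the knockout clone. Vldlr is left out because of its counts of 0. The control points lie to the right of both clones in every row, for Fgf21 by less than the error bars against the overexpressor, and Cth and Slc7a11 lie left of 0 in the knockout.

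Among the transcription factors, Atf4 (ENSMUSG00000042406, chr15:80255184-80257541, plus strand), the effector of the response, was measured at 285, 285 and 288 CPM in control myoblasts, 285, 274 and 275 in those of the overexpressor and 389, 399 and 398 in those of the knockout, and at 1139.5, 1176 and 1144 CPM in control myotubes, 445, 463 and 396 in those of the overexpressor and 430.4, 458 and 474 in those of the knockout. Control and overexpressor myoblasts overlapped, knockout myoblasts lay above both, and the control myotube libraries stood 4.03-fold above control myoblasts. The mutant myotubes lay between these groups, 2.65-fold (overexpressor) and 2.54-fold (knockout) under control myotubes. Of the differences tested, Atf4 rose in knockout against control myoblasts (log2 fold change 0.47 ± 0.06, edgeR adjusted p = 1.95e-06, ± being the SE of the log2 fold change here and in later tests) and did not pass in overexpressor myoblasts (-0.04 ± 0.06, edgeR adjusted p = 0.605). Since ATF4 is regulated mainly in translation, its messenger RNA does not report the protein.

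Atf3 (ENSMUSG00000026628, chr1:191170296-191218039, minus strand), a factor induced by ATF4 and other stresses, was measured at 0.356, 0.596 and 0.446 CPM in control myoblasts, 4.29, 5.93 and 4.60 in those of the overexpressor and 8.76, 7.61 and 6.53 in those of the knockout, and at 24.2, 23.2 and 21.03 CPM in control myotubes, 5.85, 8.88 and 5.63 in those of the overexpressor and 9.63, 9.59 and 11.1 in those of the knockout. The lowest 3 libraries were those of control myoblasts, and every mutant library, myoblasts included, lay above them. Atf3 rose in overexpressor myoblasts (log2 fold change 3.40 ± 0.23, edgeR adjusted p = 9.54e-10) and in knockout myoblasts (4.03 ± 0.23, edgeR adjusted p = 5.44e-11). Atf3 was also lower in overexpressor than in knockout myotubes (-0.57 ± 0.17, edgeR adjusted p = 0.00782).

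Ddit3 (ENSMUSG00000025408, chr10:127290774-127296288, plus strand), which encodes CHOP, the factor that drives cell death when stress persists, was measured at 10.1, 12.2 and 10.1 CPM in control myoblasts, 10.4, 11.3 and 10.3 in those of the overexpressor and 19.8, 17.6 and 18.2 in those of the knockout, and at 145, 144 and 147 CPM in control myotubes, 8.21, 11.5 and 8.24 in those of the overexpressor and 17.5, 16.3 and 16.1 in those of the knockout. Control and overexpressor myoblasts and overexpressor myotubes formed 1 low set, while control myotubes lay 13.5-fold above their myoblasts with replicates within 3 CPM of each other. Ddit3 rose in knockout myoblasts against control (0.78 ± 0.11, edgeR adjusted p = 9.47e-06) and was lower in overexpressor than in knockout myotubes (-0.83 ± 0.11, edgeR adjusted p = 5.42e-06). Exons of other entries overlap 10.9% of its exonic bases. They are a shorter entry of the same name on the same strand, which was not used here, and Gm4189 and Mars on the opposite strand. The use of strand in counting is not given in the sources used here.

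The other factors are given by group means. Atf5, a relative of ATF4 that is also translated under stress, stood at 176 ± 5.96 CPM in control and 109 ± 7.59 in knockout myoblasts and at 1357 ± 35.6 in control myotubes (SD, n = 3), and it went against the list in knockout myoblasts, where it fell (-0.69 ± 0.09, edgeR adjusted p = 3.10e-06). Nupr1, a small stress-induced chromatin protein, was at 23.1, 19.9 and 25.6 CPM in control, overexpressor and knockout myoblasts and at 287, 43.8 and 38.4 in the myotubes. Cebpb and Cebpg encode C/EBP partners of ATF4. Cebpb fell in both kinds of mutant myoblasts (-0.47 ± 0.09, edgeR adjusted p = 3.80e-04 in the overexpressor; -0.51 ± 0.09, edgeR adjusted p = 1.38e-04 in the knockout), and 20.7% of its exonic bases are overlapped by Tmem189 on the opposite strand. Cebpg did not pass in either, and was higher in overexpressor than in knockout myotubes (0.87 ± 0.13, edgeR adjusted p = 2.05e-05).

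Genes that restrain the response or growth came next. Trib3 (ENSMUSG00000032715, chr2:152337422-152344032, minus strand), a pseudokinase that binds and damps ATF4 and CHOP, was measured at 3.99, 4.71 and 4.34 CPM in control myoblasts, 5.91, 5.20 and 4.97 in those of the overexpressor and 10.3, 7.79 and 6.60 in those of the knockout, and at 352, 348 and 299 CPM in control myotubes, 12.3, 15.01 and 11.04 in those of the overexpressor and 6.57, 7.18 and 7.11 in those of the knockout. No other group came near the control myotubes, which lay 76.6-fold above control myoblasts, 26.01-fold above overexpressor and 47.9-fold above knockout myotubes. Trib3 rose in knockout myoblasts (0.91 ± 0.14, edgeR adjusted p = 3.72e-05), where replicates spread from 6.60 to 10.3 CPM. It was higher in overexpressor than in knockout myotubes (0.88 ± 0.14, edgeR adjusted p = 3.32e-05).

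Chac1 (ENSMUSG00000027313, chr2:119351229-119354381, plus strand), an enzyme that breaks down glutathione and a sensitive target of the ATF4 axis, was measured at 12.3, 12.98 and 15.3 CPM in control myoblasts, 19.6, 18.7 and 17.7 in those of the overexpressor and 30.9, 31.3 and 26.2 in those of the knockout, and at 207, 225 and 199 CPM in control myotubes, 59.03, 66.4 and 49.9 in those of the overexpressor and 31.98, 36.5 and 41.4 in those of the knockout. All 6 groups were separate, in the order control, overexpressor and knockout myoblasts, then knockout, overexpressor and control myotubes. Chac1 rose in overexpressor myoblasts (0.47 ± 0.12, edgeR adjusted p = 0.00343) and in knockout myoblasts (1.12 ± 0.12, edgeR adjusted p = 1.88e-07). In myotubes the order of the clones was the reverse, with the overexpressor above the knockout (0.67 ± 0.11, edgeR adjusted p = 6.01e-05).

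Ppp1r15a, the phosphatase subunit GADD34 that reverses eIF2 phosphorylation, rose in both kinds of mutant myoblasts, from 17.3 CPM in control to 29.5 in the overexpressor (0.77 ± 0.09, edgeR adjusted p = 2.20e-06) and 34.1 in the knockout (0.98 ± 0.09, edgeR adjusted p = 6.31e-08). Eif4ebp1, a repressor of cap-dependent translation, did likewise (0.52 ± 0.09, edgeR adjusted p = 7.57e-05; 0.71 ± 0.09, edgeR adjusted p = 1.22e-06). Sesn2 and Ddit4 lower mTORC1 activity when amino acids or energy are short. Ddit4 fell in both, from 75.5 ± 6.03 CPM to 41.6 ± 2.91 in the overexpressor (-0.86 ± 0.10, edgeR adjusted p = 1.28e-06) and 45.3 ± 0.463 in the knockout (-0.74 ± 0.10, edgeR adjusted p = 5.10e-06). Sesn2 fell in overexpressor myoblasts (-0.44 ± 0.11, edgeR adjusted p = 0.00416) and did not pass in the knockout (0.22 ± 0.11, edgeR adjusted p = 0.107).

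Of the enzymes of amino acid synthesis, Asns (ENSMUSG00000029752, chr6:7675169-7693254, minus strand), which makes asparagine and is a textbook ATF4 target, was measured at 71.5, 73.1 and 80.2 CPM in control myoblasts, 96.5, 78.1 and 87.4 in those of the overexpressor and 146, 151 and 139 in those of the knockout, and at 647, 667 and 582 CPM in control myotubes, 188, 202 and 171 in those of the overexpressor and 156, 168 and 184 in those of the knockout. Control and overexpressor myoblasts overlapped, the knockout myoblasts lay above both, and the myotubes of the clones overlapped each other. Asns rose in knockout myoblasts (0.96 ± 0.09, edgeR adjusted p = 3.23e-08). In overexpressor myoblasts the change was small (0.22 ± 0.09, edgeR adjusted p = 0.0492), and the call was lost in 17 of 25 alternatives, among them the DESeq2 Wald test (adjusted p = 0.0947) and leaving out control myoblast replicate A (edgeR adjusted p = 0.164).

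Mthfd2 (ENSMUSG00000005667, chr6:83305691-83325908, minus strand), the mitochondrial folate enzyme that feeds formate to nucleotide synthesis, was measured at 69.5, 70.7 and 75.6 CPM in control myoblasts, 76.9, 69.1 and 71.8 in those of the overexpressor and 154, 162 and 149 in those of the knockout, and at 461, 435 and 424 CPM in control myotubes, 214, 227 and 208 in those of the overexpressor and 146, 165 and 157 in those of the knockout. Control and overexpressor myoblasts were alike in range, while knockout myoblasts had reached the level of knockout myotubes. Mthfd2 rose in knockout myoblasts (1.11 ± 0.06, edgeR adjusted p = 8.62e-11) and did not pass in the overexpressor (0.01 ± 0.06, edgeR adjusted p = 0.907). In myotubes Mthfd2 was higher in the overexpressor than in the knockout (0.47 ± 0.06, edgeR adjusted p = 6.27e-06).

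Cth (ENSMUSG00000028179, chr3:157894248-157925077, minus strand), the enzyme that releases cysteine in the transsulfuration pathway, was measured at 3.03, 2.92 and 3.25 CPM in control myoblasts, 0.759, 0.582 and 0.878 in those of the overexpressor and 5.66, 5.21 and 5.57 in those of the knockout, and at 51.9, 54.8 and 51.6 CPM in control myotubes, 2.54, 2.35 and 3.06 in those of the overexpressor and 1.74, 1.81 and 1.17 in those of the knockout. Control myotubes stood 17.2-fold above control myoblasts, and both kinds of mutant myotubes lay at or under the control myoblast level, 19.9-fold (overexpressor) and 33.5-fold (knockout) under control myotubes. In myoblasts the clones went opposite ways, with a fall in the overexpressor (-2.05 ± 0.17, edgeR adjusted p = 1.15e-08) and a rise in the knockout (0.84 ± 0.14, edgeR adjusted p = 4.34e-05).

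The serine pathway of Phgdh, Psat1 and Psph makes serine from a glycolytic intermediate, and Shmt2 turns it into glycine in mitochondria. Psat1 had the highest CPM of them, without correction for exon length. It stood at 217 ± 15.2 CPM in control myoblasts, 250.2 ± 18.4 in those of the overexpressor and 402 ± 11.1 in those of the knockout. In the myotubes, in the same order, Psat1 stood at 774 ± 37.2, 467 ± 18.9 and 533 ± 37.9 (SD, n = 3). It rose in knockout myoblasts (0.89 ± 0.07, edgeR adjusted p = 6.25e-09), as did Shmt2 (0.77 ± 0.09, edgeR adjusted p = 1.27e-06) and, by less, Psph (0.28 ± 0.08, edgeR adjusted p = 0.00774), while Phgdh did not pass (0.13 ± 0.11, edgeR adjusted p = 0.361). Shmt2 and Phgdh were lower in overexpressor than in knockout myotubes (-0.62 ± 0.09, edgeR adjusted p = 2.07e-05; -0.64 ± 0.11, edgeR adjusted p = 1.21e-04), and Psph was higher (0.44 ± 0.08, edgeR adjusted p = 1.60e-04). Phgdh has an annotated pseudogene copy, and Cct6a overlaps 10.4% of the exonic bases of Psph, so both are uncertain to that extent. Aldh18a1 and Pycr1, which make proline, were at 391 and 84.5 CPM in control myotubes and at most at 136 and 31.3 in any other group.

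Among the amino acid transporters, Slc7a11 (ENSMUSG00000027737, chr3:49892526-50443614, minus strand), the cystine importer whose promoter holds the element 2 times, was measured at 1.498, 1.06 and 1.18 CPM in control myoblasts, 0.739, 0.992 and 0.601 in those of the overexpressor and 2.80, 2.95 and 2.35 in those of the knockout, and at 24.8, 24.1 and 27.4 CPM in control myotubes, 0.965, 0.863 and 1.56 in those of the overexpressor and 0.512, 0.318 and 0.397 in those of the knockout. Outside control myotubes it never exceeded 3 CPM. Its lowest libraries were the knockout myotubes, although knockout myoblasts were the highest of the 3 myoblast groups. Slc7a11 rose in knockout myoblasts (1.11 ± 0.21, edgeR adjusted p = 2.12e-04) and was higher in overexpressor than in knockout myotubes (1.45 ± 0.25, edgeR adjusted p = 9.73e-05). The fall in overexpressor myoblasts (-0.68 ± 0.24, edgeR adjusted p = 0.0316) was lost without control myoblast replicate A (edgeR adjusted p = 0.147), overexpressor replicate A (0.0899) or overexpressor replicate C (0.131).

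Slc7a5 (ENSMUSG00000040010, chr8:121881150-121907694, minus strand), the leucine and tryptophan transporter LAT1, was measured at 151, 158 and 169 CPM in control myoblasts, 219.7, 202 and 226 in those of the overexpressor and 433, 446 and 432 in those of the knockout, and at 1431, 1457 and 1262 CPM in control myotubes, 471, 525 and 420.0 in those of the overexpressor and 443, 475 and 531 in those of the knockout. The 3 myoblast groups were separate, and the myotubes of the clones overlapped each other at about the level of knockout myoblasts. Slc7a5 rose in overexpressor (0.44 ± 0.09, edgeR adjusted p = 3.95e-04) and more in knockout myoblasts (1.45 ± 0.09, edgeR adjusted p = 1.16e-10), and was the member that rose most there among those above 50 CPM in control. Slc3a2, the heavy chain that pairs with both Slc7a5 and Slc7a11, rose in knockout myoblasts (0.89 ± 0.07, edgeR adjusted p = 7.03e-09) and did not pass in the overexpressor (0.16 ± 0.07, edgeR adjusted p = 0.0875). Slc7a1, a carrier of arginine and lysine, rose in both (0.24 ± 0.06, edgeR adjusted p = 0.00266; 0.69 ± 0.06, edgeR adjusted p = 1.43e-08). Slc7a3, a further carrier of this kind, held at most 23 counts in any library outside control myotubes, where it reached 1.51 ± 0.193 CPM (SD, n = 3), and it passed no test.

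**Figure D3:**
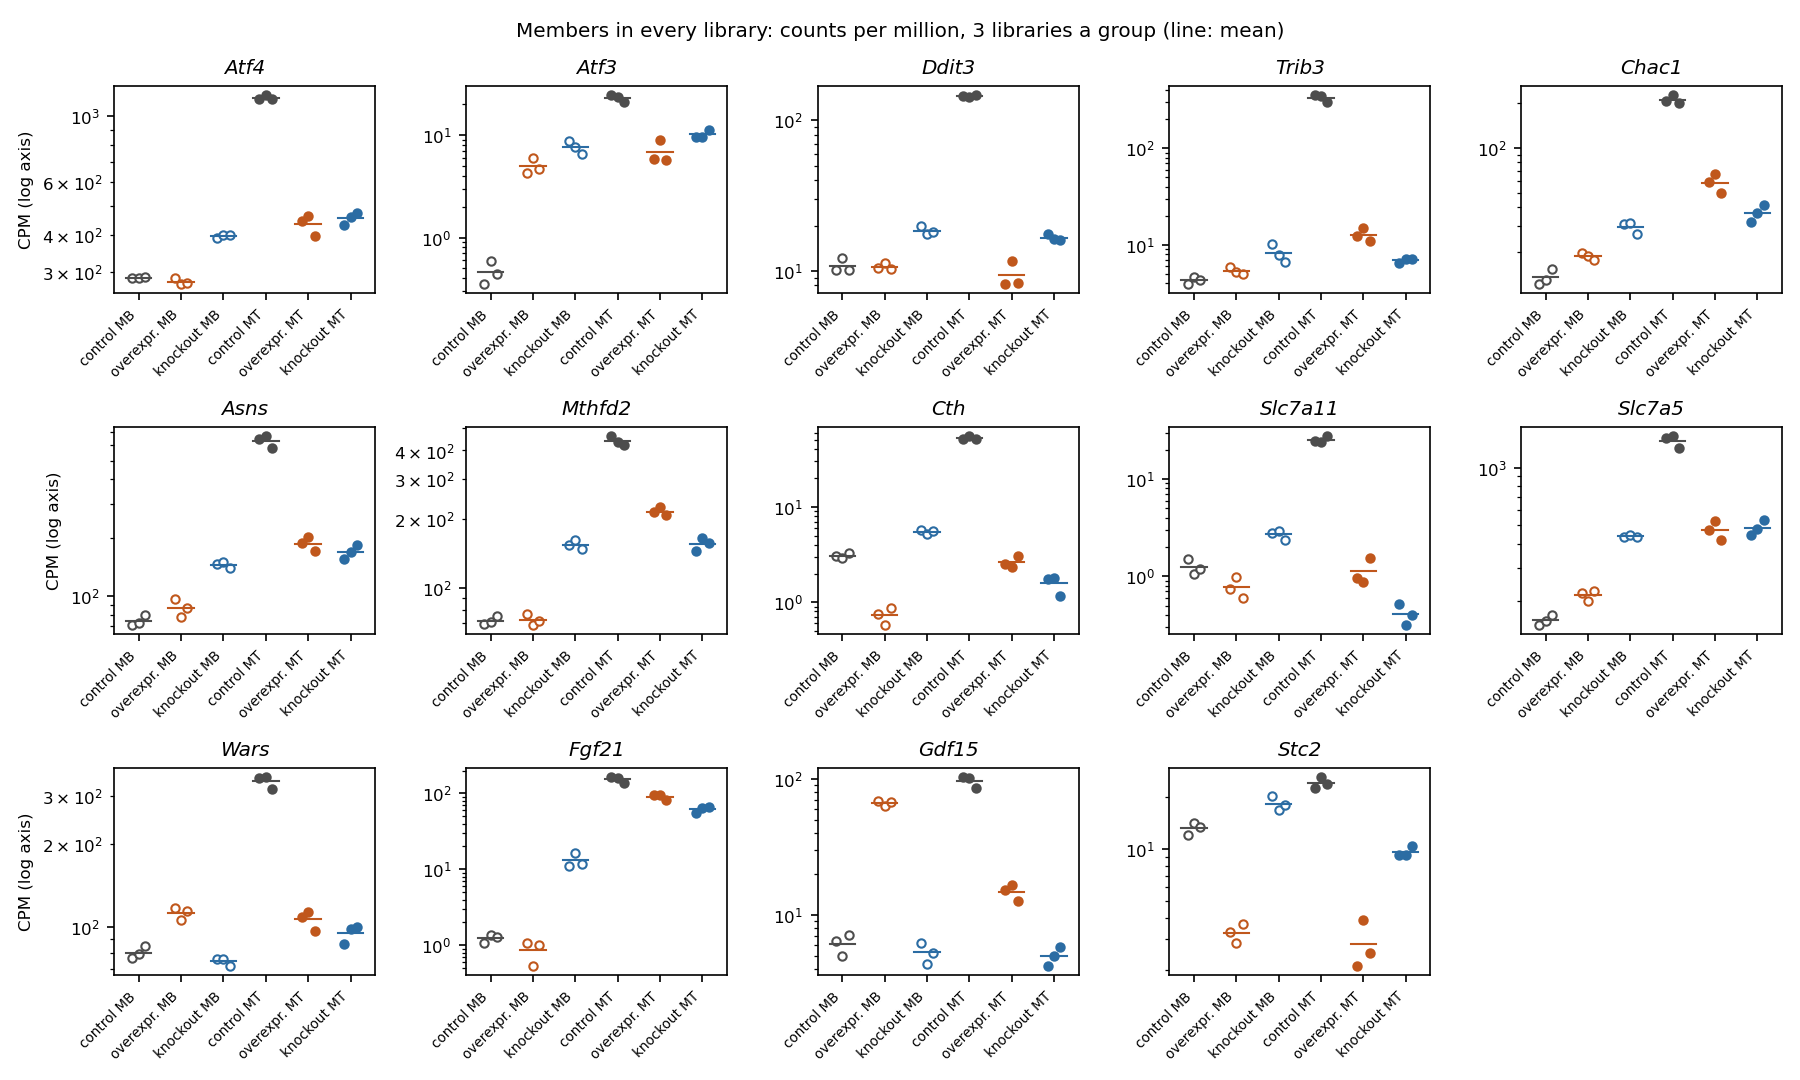
CPM of 14 members in each library (points; log axes that differ between panels) with the group mean as a line, for myoblasts (MB, open) and myotubes (MT, filled) of the 3 lines. The 3 control myotube points lie above all others in each panel, and the second highest group differs between genes, being overexpressor myoblasts for Gdf15, knockout myoblasts for Stc2 and overexpressor myotubes for Fgf21.

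Wars (ENSMUSG00000021266, chr12:108860030-108894174, minus strand), which encodes the cytosolic enzyme that charges tRNA with tryptophan, prompted the list. It lies 646827 bases from Meg3 on the same chromosome. Wars was measured at 76.6, 79.3 and 85.02 CPM in control myoblasts, 117, 106 and 114 in those of the overexpressor and 75.9, 75.9 and 72.04 in those of the knockout, and at 348, 350.1 and 317 CPM in control myotubes, 109, 113 and 96.5 in those of the overexpressor and 86.3, 98.04 and 99.6 in those of the knockout. Control myotubes lay 4.21-fold above control myoblasts, whereas overexpressor myotubes overlapped overexpressor myoblasts and knockout myotubes were slightly above their own myoblasts (log2 difference 0.34 ± 0.07, SE). Against control myoblasts the log2 difference of Wars was 0.48 ± 0.07 (SE) in the overexpressor and -0.11 ± 0.07 in the knockout. Between overexpressor and knockout myotubes it was 0.17 ± 0.07. These libraries of Wars entered the choice, so no p-value is given.

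Of 19 other cytosolic aminoacyl-tRNA synthetase genes, 13 had control myotubes above all 15 other libraries (Aars, Cars, Eprs, Gars, Hars, Iars, Lars, Mars1, Nars, Rars, Sars, Tars and Yars), against 9.81% of genes, and 6 did not (Dars, Farsa, Farsb, Kars, Qars and Vars). Their median log2 difference between control myotubes and myoblasts was 1.503, beside 2.08 for Wars. The seryl-tRNA synthetase gene Sars stood at 2.44 and Lars, its relative for leucine, at 2.28, whereas Qars, for glutamine, was at -0.44 and Vars, for valine, at -0.09. Of 17 mitochondrial synthetase genes, 1 (Rars2) had this pattern. In the myoblast tests 14 of the 19 rose and 3 fell in the knockout, against 26.4% and 26.6% of genes, led by Dars (0.92 ± 0.14, edgeR adjusted p = 4.77e-05) and Aars (0.87 ± 0.07, edgeR adjusted p = 9.56e-09) and with Farsa the lowest (-0.78 ± 0.09, edgeR adjusted p = 9.56e-07). In overexpressor myoblasts 5 rose and 7 fell, against 20.7% and 19.7% of genes, with Aars the highest (0.51 ± 0.07, edgeR adjusted p = 1.21e-05) and Farsa the lowest (-1.16 ± 0.09, edgeR adjusted p = 9.47e-09). Wars, described without a p-value, stood at log2 0.48 in overexpressor myoblasts and at -0.11 in knockout myoblasts, where 14 of the 19 rose.

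**Figure D4:**
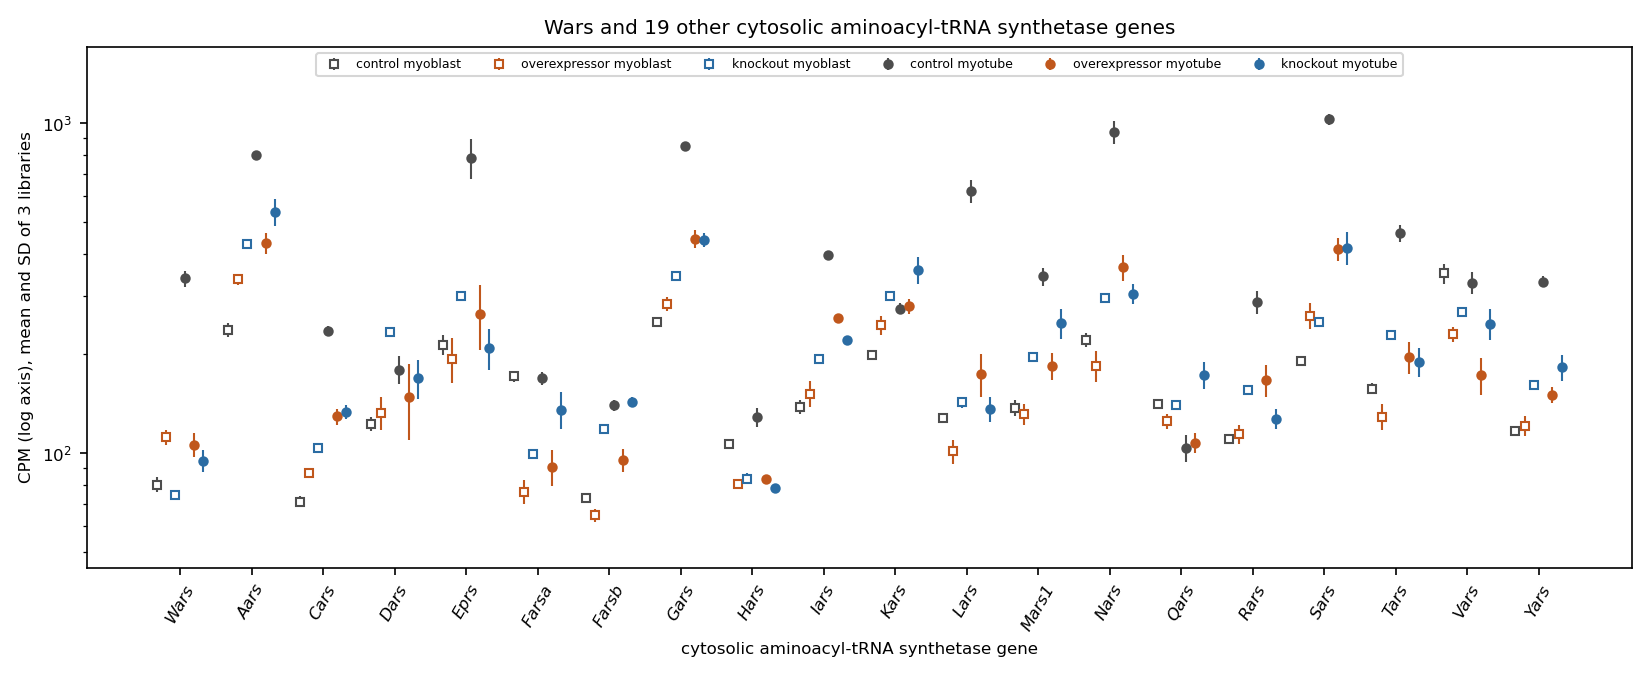
Mean and SD (3 libraries, log axis) of CPM in the 6 groups for Wars and the 19 other cytosolic aminoacyl-tRNA synthetase genes. The filled dark points, control myotubes, stand above the rest for Wars and 13 others, and not for Dars, Farsa, Farsb, Kars, Qars and Vars.

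The secreted factors differed from one another in pattern. Fgf21 (ENSMUSG00000030827, chr7:45613886-45615490, minus strand), an endocrine factor released by stressed muscle and liver, was measured at 1.07, 1.36 and 1.29 CPM in control myoblasts, 1.08, 0.539 and 0.994 in those of the overexpressor and 11.1, 16.4 and 11.8 in those of the knockout, and at 162, 161 and 136 CPM in control myotubes, 94.95, 94.7 and 80.9 in those of the overexpressor and 55.9, 64.3 and 65.5 in those of the knockout. It was the member with the largest ratio between control myotubes and myoblasts, 123-fold, and the mutant myotubes were 1.70-fold (overexpressor) and 2.48-fold (knockout) under control. Only Psat1, at 1.66-fold, was nearer to control in the overexpressor. Fgf21 rose in knockout myoblasts (3.41 ± 0.19, edgeR adjusted p = 1.45e-10) and did not pass in the overexpressor (-0.51 ± 0.24, edgeR adjusted p = 0.112). The overexpressor was above the knockout in myotubes (0.54 ± 0.14, edgeR adjusted p = 0.00410) and below it in myoblasts (-3.91 ± 0.20, edgeR adjusted p = 4.41e-11).

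Gdf15 (ENSMUSG00000038508, chr8:70629393-70632456, minus strand), a hormone of cell stress that lowers appetite, was measured at 6.42, 4.98 and 7.19 CPM in control myoblasts, 69.2, 62.7 and 67.1 in those of the overexpressor and 6.28, 4.41 and 5.30 in those of the knockout, and at 102, 101 and 85.98 CPM in control myotubes, 15.3, 16.5 and 12.7 in those of the overexpressor and 4.27, 4.99 and 5.83 in those of the knockout. Among myoblasts the overexpressor libraries were high and the knockout libraries overlapped control, the reverse of Fgf21. Gdf15 rose in overexpressor myoblasts (3.42 ± 0.15, edgeR adjusted p = 6.02e-12) and did not pass in the knockout (-0.22 ± 0.15, edgeR adjusted p = 0.246). Within the overexpressor Gdf15 was lower in all myotube than in all myoblast libraries, while in control cells it was higher. Overexpressor myotubes lay above knockout myotubes (1.56 ± 0.15, edgeR adjusted p = 1.33e-07).

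Stc2 (ENSMUSG00000020303, chr11:31357307-31370074, minus strand), a secreted glycoprotein induced by endoplasmic reticulum stress, was measured at 12.1, 14.1 and 13.5 CPM in control myoblasts, 3.29, 2.85 and 3.67 in those of the overexpressor and 20.3, 16.8 and 18.1 in those of the knockout, and at 22.7, 26.1 and 23.8 CPM in control myotubes, 2.11, 3.89 and 2.49 in those of the overexpressor and 9.25, 9.31 and 10.5 in those of the knockout. Its lowest libraries were all 6 of the overexpressor, and knockout myoblasts lay above knockout myotubes. Stc2 fell in overexpressor myoblasts (-2.02 ± 0.17, edgeR adjusted p = 1.78e-08) and was lower in overexpressor than in knockout myotubes (-1.77 ± 0.17, edgeR adjusted p = 9.02e-08). The rise in knockout myoblasts (0.47 ± 0.15, edgeR adjusted p = 0.0152) was lost without control replicate A (edgeR adjusted p = 0.0652) or knockout replicate A (0.0694).

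Vldlr (ENSMUSG00000024924, chr19:27216484-27254231, plus strand), a lipoprotein receptor of the cell surface that ATF4 is known to induce, is given in counts because it was close to 0 outside the control line. The control myoblast libraries held 29, 27 and 32 counts and the control myotube libraries 3370, 2318 and 3315. Overexpressor myoblasts held 0 in each library and knockout myoblasts 0, 1 and 0. Overexpressor myotubes held 3, 0 and 11, and knockout myotubes 0, 0 and 3. Vldlr was thus detected in all 6 control libraries and barely in either clone at either stage. Against the floor of 3 counts per library, it was at least 9.15-fold lower in overexpressor than in control myoblasts (edgeR adjusted p = 9.04e-05). The fall in knockout myoblasts also passed (edgeR adjusted p = 6.24e-05).

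Counted over the list, knockout myoblasts differed from control in 25 members. Of these 21 rose, against 26.4% of all genes, and 4 fell (Atf5, Cebpb, Ddit4 and Vldlr), against 26.6%. The median log2 fold change was 0.58 over the members and 0.02 over all genes tested. By role, 4 of 7 transcription factors, 4 of 6 genes of feedback and restraint, 7 of 9 synthesis enzymes, 4 of 5 transporters and 2 of 4 secreted and surface genes rose. The 7 not counted as rising or falling were Cebpg, Sesn2, Phgdh, Pycr1, Slc7a3, Gdf15 and Wars, the last only described. In the same contrast all 8 myotube markers rose, with a median log2 fold change of 5.47, while Krt14 fell (-2.20 ± 0.14, edgeR adjusted p = 4.60e-10), and the part of these markers in the result was not tested. The calls of Nupr1 (0.15 ± 0.06, edgeR adjusted p = 0.0377), Aldh18a1 (0.23 ± 0.08, edgeR adjusted p = 0.0309) and Psph were each lost in at least 1 alternative, that of Nupr1 in 10 of 25.

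Overexpressor myoblasts differed from control in 19 members, with no common direction. There were 10 that rose, against 20.7% of genes, and 9 that fell, against 19.7%, and the median log2 fold change was -0.01 over the members, also with Vldlr at its bound, and 0.02 over all genes. Gdf15 and Atf3 had the largest rise, and Cth, Stc2 and Vldlr the largest fall. Those that rose by less were Ppp1r15a, Eif4ebp1, Chac1, Slc7a5, Slc7a1, Asns and Psat1, and the count of rises includes Wars, which is only described. Those that fell by less were Ddit4, Slc7a11, Cebpb, Sesn2, Pycr1 and Nupr1. Of the calls not yet qualified, that of Psat1 (0.20 ± 0.07, edgeR adjusted p = 0.0285) was lost in 6 of 25 alternatives, that of Nupr1 (-0.21 ± 0.06, edgeR adjusted p = 0.00832) without control replicate B and that of Pycr1 (-0.40 ± 0.12, edgeR adjusted p = 0.0111) without overexpressor replicate B (edgeR adjusted p = 0.0522 and 0.0667). Of the markers, 6 of 8 myotube markers rose (median log2 fold change 0.80), as did Krt14 (1.17 ± 0.14, edgeR adjusted p = 1.41e-06), and their part in the result was not tested. Without overexpressor replicate B, which stood apart, 11 members rose and 8 fell. The comparisons of both clones with control share the control myoblasts.

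Set against each other, the myoblasts of the clones differed in 24 members. The overexpressor was lower in 21, against 26.9% of genes, and higher in 3 (Atf5, Gdf15 and Wars, the last only described), against 25.7%. The median log2 fold change was -0.62 over the members and -0.02 over all genes. The widest differences were those of Fgf21, of Gdf15 (3.64 ± 0.16, edgeR adjusted p = 1.85e-12) and of Cth (-2.89 ± 0.16, edgeR adjusted p = 4.07e-11). All 8 myotube markers were lower in the overexpressor here too, with a median log2 fold change of -4.73, and their part was not tested. The calls of Phgdh (-0.38 ± 0.11, edgeR adjusted p = 0.00917) and Aldh18a1 (-0.23 ± 0.08, edgeR adjusted p = 0.0259) were lost without overexpressor myoblast replicate B (edgeR adjusted p = 0.0554 and 0.135), and that of Aldh18a1 also without knockout replicate A or B (0.0562 and 0.0835). Without overexpressor replicate B 3 members were higher and 20 lower.

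**Figure D5:**
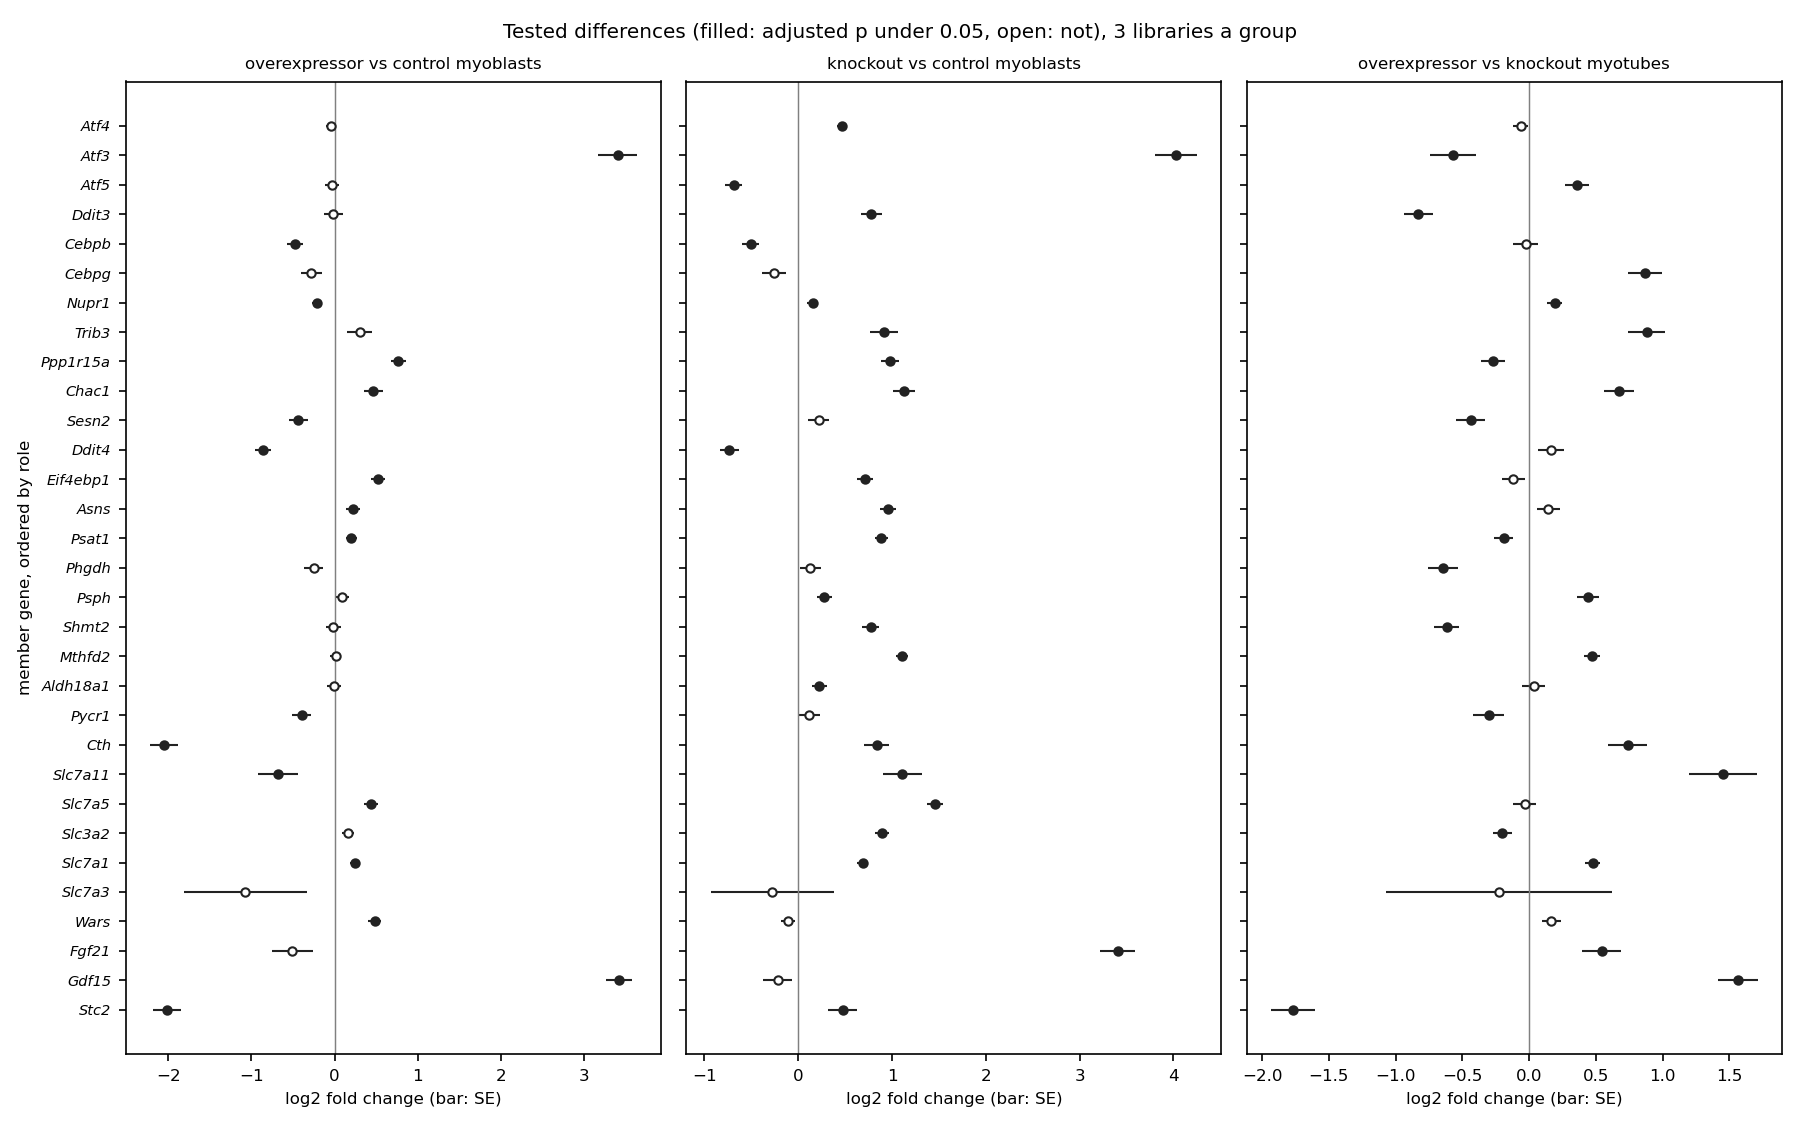
Log2 fold change with SE (x axes differ) of 31 members in the 3 tested contrasts named above the panels, filled where the edgeR adjusted p was under 0.05. Wars is drawn by the same rule although it is only described. Vldlr is left out because of its counts of 0. Most filled points lie right of 0 in knockout myoblasts, and on both sides in the other panels.

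In myotubes the clones differed from each other in 22 members, evenly split. The overexpressor was higher in 12, against 30.6% of genes, and lower in 10, against 29.1%, with a median log2 fold change of 0.09 over the members and 0.02 over all genes. The members higher in the overexpressor were Gdf15, Slc7a11, Trib3, Cebpg, Cth, Chac1, Fgf21, Slc7a1, Mthfd2, Psph, Atf5 and Nupr1. Those lower were Stc2, Ddit3, Phgdh, Shmt2, Atf3, Sesn2, Pycr1, Ppp1r15a, Slc3a2 and Psat1. The last 4 of these lost the call without overexpressor myotube replicate C, the library that stood apart (edgeR adjusted p of 0.203, 0.155, 0.271 and 0.176 in that order), and also without knockout myotube replicate C (0.173, 0.0609, 0.121 and 0.104). Without the former library 15 members were higher and 6 lower, and without the latter 13 were higher and 6 lower. With library totals 15 were higher and 6 lower. Nupr1 lost the call without knockout replicate B (0.0563). The summed myotube markers, 28193 to 31152 CPM in the overexpressor and 36689 to 44116 in the knockout, did not overlap between these groups, nor did the summed cycling genes or the summed markers of other cell types given above. Taken singly, the 7 cycling genes had no common direction. In the overexpressor 2 were higher and 3 lower, with a median log2 fold change of 0.0033. The part of these markers was not tested.

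The differentiation responses of the clones, each the difference between its own myotubes and myoblasts, were compared in 1 interaction term. The response of the overexpressor was above that of the knockout for 16 members, against 24.3% of genes. It was below that of the knockout for 2 (Gdf15 and Wars, the latter only described), against 22.4%. The median difference was 0.51 over the members and 0.06 over all genes. The largest were those of Fgf21 (4.45 ± 0.25, edgeR adjusted p = 7.13e-10), Cth (3.63 ± 0.22, edgeR adjusted p = 5.80e-10) and Slc7a11 (3.24 ± 0.34, edgeR adjusted p = 5.88e-07), and for Cth and Slc7a11 the knockout myotubes were lower than the knockout myoblasts. The call of Stc2 (0.72 ± 0.23, edgeR adjusted p = 0.0168) was lost without overexpressor myotube replicate B (edgeR adjusted p = 0.0557), and without replicate C 19 members were above and 2 below. All 8 myotube markers differed in the same direction, with a median of 4.15, from knockout myoblasts that were already high, and their part was not tested.

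Other genes of the pathway were drawn from lists named with earlier results known. Among 13 genes of the eIF2 kinases and eIF2 machinery, control myotubes were above all other libraries for 1, against 9.81% of all genes. It was Ppp1r15b, the constitutive counterpart of Ppp1r15a. Over all genes, 20.7% rose and 19.7% fell in overexpressor myoblasts and 26.4% and 26.6% in knockout myoblasts, and the counts of these lists are to be read against those shares. In myoblasts 1 of the 13 rose and 0 fell in the overexpressor, the former being Eif2ak3, the kinase PERK that senses unfolded protein (0.35 ± 0.09, edgeR adjusted p = 0.00340). In the knockout 5 rose and 2 fell, with Eif2b4, a subunit of the eIF2 exchange factor, the highest (0.95 ± 0.09, edgeR adjusted p = 8.44e-08) and Eif2ak4, the kinase GCN2 that senses uncharged tRNA, the lowest (-0.70 ± 0.09, edgeR adjusted p = 2.64e-06). The kinases are controlled mainly as proteins, so their messenger RNA does not report activity. Between the myotubes of the clones 8 of the 13 were higher and 3 lower in the overexpressor, against 30.6% and 29.1% of genes, among them Eif2s2, the beta subunit of eIF2 (1.503 ± 0.25, edgeR adjusted p = 1.55e-04), and Eif2b4 (-1.38 ± 0.09, edgeR adjusted p = 1.19e-09).

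Of 12 other amino acid transporters, 4 had the control myotube pattern (Slc1a4, Slc1a5, Slc6a9 and Slc7a2), against 9.81% of genes. In myoblasts 1 rose and 5 fell in the overexpressor, with Slc43a1 (-2.33 ± 0.14, edgeR adjusted p = 1.91e-10) and Slc7a2, another arginine carrier (-2.22 ± 0.19, edgeR adjusted p = 1.38e-07), the lowest, and 2 rose and 7 fell in the knockout, beside 4 of 5 member transporters that rose in the latter. Among 12 other one-carbon and serine genes, Aldh1l2, a mitochondrial folate enzyme with the control myotube pattern, went from 36.5 ± 1.43 CPM in control myoblasts to 512 ± 27.00 in control myotubes (SD, n = 3), with 44.6 ± 3.70 in those of the overexpressor and 41.99 ± 3.59 in those of the knockout. In the myoblast tests 2 of these 12 rose and 6 fell in the overexpressor, while 4 rose and 3 fell in the knockout, near the 26.4% and 26.6% of all genes.

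Neighbouring stress programs were counted for comparison. Of 12 endoplasmic reticulum chaperones and other targets of ATF6 and XBP1, the other branches of the unfolded protein response, 4 had the control myotube pattern (Hspa5, Dnajb9, Herpud1 and Edem1), against 9.81% of genes. Between control myotubes and myoblasts 5 were higher in all libraries, against 38% of genes, and 6 lower in all, against 32.7%. These overlap counts were not recomputed with library totals. Hspa5, the chaperone BiP, was at 723 ± 43.5 CPM in control myoblasts and 871 ± 60.4 in control myotubes (SD, n = 3), a ratio of 1.20, beside 13.5 for Ddit3. In myoblasts 0 of the 12 rose and 7 fell in the overexpressor, against 20.7% and 19.7% of genes, and 2 rose and 5 fell in the knockout, against 26.4% and 26.6%. Of 14 interferon-induced genes 1 had the pattern, against 9.81% of genes. It was Isg15, at 3.05 ± 0.534 CPM in control myotubes. In myoblasts 2 of the 14 rose and 8 fell in the overexpressor, and 0 rose and 10 fell in the knockout, with the same shares of genes beside them. Irf1, a main interferon factor, fell in overexpressor myoblasts (-0.74 ± 0.10, edgeR adjusted p = 7.53e-06).

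Levels were compared between members per kilobase of exon. In control myotubes Atf5 was the highest at 681 CPM per kilobase, followed by Atf4 (489), Slc7a5 (373), Slc3a2 (235) and Asns (231). Slc7a3 (0.398), Slc7a11 (1.83), Stc2 (4.68) and Vldlr (5.85) were the lowest. The abundant members were thus transcription factors, the LAT1 transporter pair and asparagine synthetase. Of the members with high ratios to control myoblasts, Fgf21 (161), Trib3 (157) and Chac1 (128) were among those above 100 CPM per kilobase. Gdf15 (52.0), Cth (18.9) and Atf3 (10.6) were below 100, and Vldlr and Slc7a11 were among the lowest 4. The length is that of all annotated exons of a gene, 13922 bases for Slc7a11, which places a gene with long alternative exons low.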

How the data were processed

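Polyadenylated RNA of 18 C2C12 libraries was sequenced, 3 per group. Per the submitters' processing notes the tools were STAR 2.7.9a, featureCounts from Subread 2.0.3, FastQC 0.11.7 and DESeq2 1.32.0, with build mm10, while strand handling and the annotation behind the counts are not given in the sources used here. The deposited values are whole read counts per gene, not normalized. The table of variance-stabilized values was not used. Of 55450 gene identifiers 55190 matched GENCODE vM21 (GRCm38), and the rest held 0.00589% of counts.

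Counts were fitted once over all 18 libraries and 6 groups with the edgeR 4.0.16 quasi-likelihood test (R 4.3.3, TMM scaling, filterByExpr by group, robust dispersions), and p-values were adjusted by Benjamini-Hochberg over the 17912 genes tested, with a threshold of 0.05. CPM are counts scaled by TMM. The members and lists were chosen with earlier results of these data known, so 7 contrasts used by that choice are described by values, SE and overlap only, and 5 are tested. Wars is only described in these 5 as well, and the counts of members called include it. Values in every library are given for Wars, Atf4, Ddit3, Trib3, Asns and each member with a tested absolute log2 fold change of at least 1 and at least 5 CPM in a group. Of each other pathway list at most the 2 highest and 2 lowest genes past the threshold in a contrast and at 5 CPM or more in a group are named. Hspa5, Isg15, Aldh1l2, Krt14 and Col2a1 and the synthetases given for control cells were chosen after their values were seen. The 25 alternatives were DESeq2 size factors, library totals, the DESeq2 1.42.0 Wald test, no low-count filter, a stricter one of 1 CPM in 3 libraries, dispersions without the robust option, a replicate block, and each library left out in turn. On simulated counts for knockout against control myoblasts (17235 genes), 88.4% of 86 genes changed by log2 1 and 100% of 114 changed by log2 2 were recovered, and 11 of 17035 unchanged genes were called. In the simulation only 200 genes, none of low count, differed between groups, whereas 53% of genes were called in the real contrast. These rates therefore do not carry over to the data or to members of low count.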

Additional observations from a re-analysis of the deposited data

Results flagged for a closer look

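The differentiation response, the log2 difference between a clone's own myotubes and myoblasts, differed between the overexpressor and the knockout for 18 members, by a test of the difference itself (the interaction term of the edgeR fit). These are 56.2% of the members, against 46.7% of all genes. Over all genes the response was larger in the overexpressor for 24.3% and smaller for 22.4%, and the counts by role are to be read against those shares. Among the 7 transcription factors and 6 genes of feedback and restraint it was larger in the overexpressor for 3 and 2, with differences of Atf4 0.45 (adjusted p = 2.71e-04), Cebpg 0.89 (adjusted p = 7.15e-04), Nupr1 0.55 (adjusted p = 3.59e-05), Trib3 1.49 (adjusted p = 1.12e-05) and Chac1 1.33 (adjusted p = 3.04e-06). Among 9 synthesis enzymes it was larger for 5, Asns 0.88 (adjusted p = 1.45e-05), Psat1 0.49 (adjusted p = 6.07e-04), Psph 0.63 (adjusted p = 2.54e-04), Mthfd2 1.56 (adjusted p = 3.39e-10) and Cth 3.63 (adjusted p = 5.80e-10). Among 5 transporters it was larger for 4, Slc7a11 3.24 (adjusted p = 5.88e-07), Slc7a5 0.98 (adjusted p = 3.71e-06), Slc3a2 0.53 (adjusted p = 3.57e-04) and Slc7a1 0.92 (adjusted p = 8.57e-08), and among 4 secreted and surface genes for 2, Fgf21 4.45 (adjusted p = 7.13e-10) and Stc2 0.72 (adjusted p = 0.0168). It was smaller in the overexpressor for Gdf15 -2.08 (adjusted p = 4.47e-07) and for Wars -0.42, given without a p-value because its libraries entered the choice. For Gdf15 both clones lacked a higher level in myotubes. The overexpressor libraries went from 62.7 to 69.2 CPM in myoblasts to 12.7 to 16.5 in myotubes, and those of the knockout from 4.41 to 6.28 to 4.27 to 5.83.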

How the results depend on the processing

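Of 108 member calls in the tested contrasts, 91 held in all 25 alternatives, 17 were lost in at least 1 and none reversed. These include calls of Wars, which is only described. Between overexpressor and knockout myotubes 10 members were lower, 6 with library totals and 6 to 10 with each library left out in turn. Between knockout myotubes and myoblasts 15 members were higher in all libraries, 9 with library totals and 15 to 16 with a library left out. Between overexpressor myotubes and myoblasts 3 members were lower in all libraries, 3 to 5 with a library left out, with 5 without overexpressor myotube replicate B. The difference of Ddit4 between control myotubes and myoblasts, 0.08 on the log2 scale, was -0.165 with library totals and -0.0144 to 0.167 with a library left out, the lowest without control myotube replicate B. The cause was not tested. Library totals moved the median of all genes by over 0.1 in several contrasts, from 0.07 to -0.17 between control myotubes and myoblasts and from -0.08 to -0.24 between those of the knockout. The replicate letters did not pair the libraries (4 of 45 same-letter pairs had a correlation of deviations over 0.1, with a median of -0.016), and with the replicate block 18 members in place of 19 were called between overexpressor and control myoblasts, while the 4 other tested counts did not move (25, 24, 22 and 18). At these depths 3 counts are 0.0375 to 0.0693 CPM, so Vldlr in the clones is near the limit of detection.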
